A study of Drosophila melanogaster with 12 samples.

Results

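Early adult ageing of control photoreceptors was examined by comparing the nuclear transcriptome of Rh1>Ctrl flies at D10 with that at D1, in 6 of the 12 RNA-seq libraries of the study, 3 at each age. All Rh1>Ctrl flies were males of a w background that carried a UAS-GFP-Msp300KASH tag inserted at attP2, the rh1-GAL4 driver, the ry[506] allele and UAS-LacZ, the control transgene. The other 6 libraries came from Rh1>ClkDN flies, which carried the same tag and driver with UAS-ClkDN, a dominant negative Clock, in place of UAS-LacZ. They were used only to ask whether a change seen in Rh1>Ctrl was also present in the second genotype. Flies of both genotypes were kept under 12:12 light:dark cycles at 25 degrees C, aged for 1 or 10 days after eclosion and collected at ZT 9. The sample titles call the younger age D2, and D1 is used here. The rh1-GAL4 driver is active in outer photoreceptors, so nuclei tagged with GFP came from those cells, and each library pooled 400 flies. A library thus gives the mean of many eyes, and spread among flies is not seen. Of the 13929 genes in the table, 7239 had at least 10 counts in at least 3 of the 6 libraries and were tested. For 216 of these the third highest count was exactly 10, and for 191 genes left out it was 9.

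As background, the first days of adult life are a period in which a fly eye goes from newly formed to mature. Cuticle and lens are completed around eclosion. The rhabdomere, the stack of microvilli that holds the phototransduction machinery, receives light throughout the day. In that machinery, light converts rhodopsin to an active form that signals through Gq and the phospholipase C encoded by *norpA* to open TRP channels. Arrestin ends the response. Photoreceptors also run their own circadian clock, in which Clk and Cyc activate *per*, *tim*, *vri*, *Pdp1* and *cwo*, whose products feed back on the cycle.

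Both age groups held a library that stood apart. Total counts were between 2680229 and 5279375 at D1 and between 1356529 and 4862510 at D10. Replicate 3 at D1 had a count for 13097 genes, against 9933 and 10180 in the other D1 libraries and 9267 to 10314 at D10. Of the 3065 genes with no count in replicates 1 and 2 at D1, it had a count for 2337 (76.2%), at a median of 5 counts, where the D10 libraries had a count for 320 to 622. Replicate 2 at D10 was the shallowest library. With levels given as CPM, counts scaled to the normalized total of each library, its correlation with the other 5 (Pearson's r of log2(CPM + 1)) was 0.84 to 0.91, against 0.92 to 0.98 among those 5. It also had the highest summed CPM of haemocyte markers (737, against 371 and 364 in the other D10 libraries), fat body markers (6225, against 3803 and 4307) and cytoplasmic ribosomal protein genes (4199, against 1675 and 2244). Results are therefore also given without replicate 3 at D1 and without replicate 2 at D10.

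**Figure D1:**
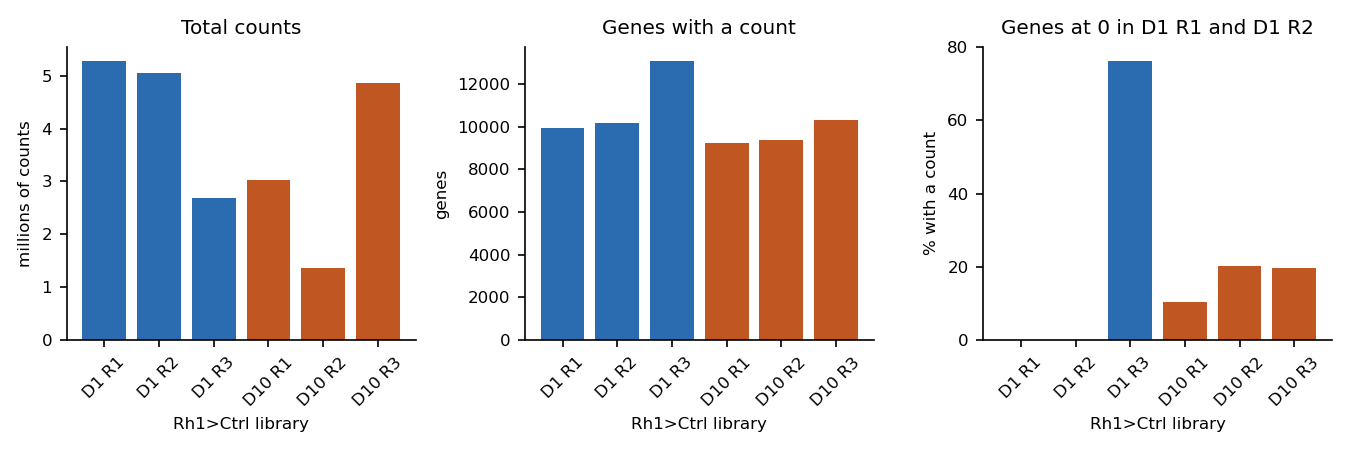
Total counts, number of genes with at least 1 count, and percent of the 3065 genes at 0 in replicates 1 and 2 at D1 that had a count, for each Rh1>Ctrl library (bars; blue D1, orange D10; R stands for replicate). The third panel is 0 by construction for the first 2 bars, and replicate 3 at D1 reached 76.2% there.

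Markers of outer photoreceptors were high in all 6 libraries. All 13 of the listed markers were tested, and their summed level was 63734 to 97209 CPM at D1 and 77993 to 115328 CPM at D10. The most abundant was *norpA*, at 20647 to 24322 CPM at D1 and 21365 to 34720 CPM at D10. Markers of inner photoreceptors, the other photoreceptors of the fly eye, summed to 247 to 275 CPM at D1 and 304 to 404 CPM at D10. The pigment cell list summed to 817 to 1283 and 1341 to 1711 CPM, and the glial list to 298 to 358 and 354 to 447 CPM. For muscle the sums were 3650 to 4757 and 3439 to 4363 CPM, mostly from *Zasp52* and *Tm1*. Of 26 gut markers 2 were tested, and the list summed to 68.4 CPM in replicate 3 at D1 and to 13.9 to 21.6 CPM in the other 5 libraries. The exact permutation test of such a sum, 3 libraries against 3, cannot give a two-sided p under 0.1. It gave 0.1 for the inner photoreceptor, pigment cell, fat body and haemocyte sums, which were all higher at D10 with no overlap between the ages, and 0.2 or more for the other 8 marker lists.

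Ageing from D1 to D10 changed few genes beyond the spread between these libraries. Of the 7239 genes tested, 51 (0.705%) were differentially expressed (DEGs), at an adjusted p under 0.05 by edgeR's quasi-likelihood test and a fold change over 1.5. Of these, 23 rose (0.318% of genes tested) and 28 fell (0.387%). All 51 DEGs had groups that did not overlap, as did 1381 of the genes tested (19.1%). Every DEG changed at least 2-fold, the least being *dnr1* with a log2 fold change of -1.25. An unadjusted p under 0.05 was found for 809 genes. The median log2 fold change over all genes tested was 0.04. The biological coefficient of variation was 0.41, and leaving out single libraries moved the count of DEGs widely. There were 2 without replicate 1, 3 without replicate 2 and 1 without replicate 3 at D1. At D10 the counts were 58 without replicate 1, 171 without replicate 2 (2.39% of 7152 genes) and 1 without replicate 3. The direction of every DEG that could still be tested was kept in each of these 6 fits. Since no DEG had groups that overlapped, leaving out 1 library could hardly reverse a direction, and nothing is read from this. *Hsp83* was the only gene called in all 6, and is the only DEG called without replicate 3 at D1.

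**Figure D2:**
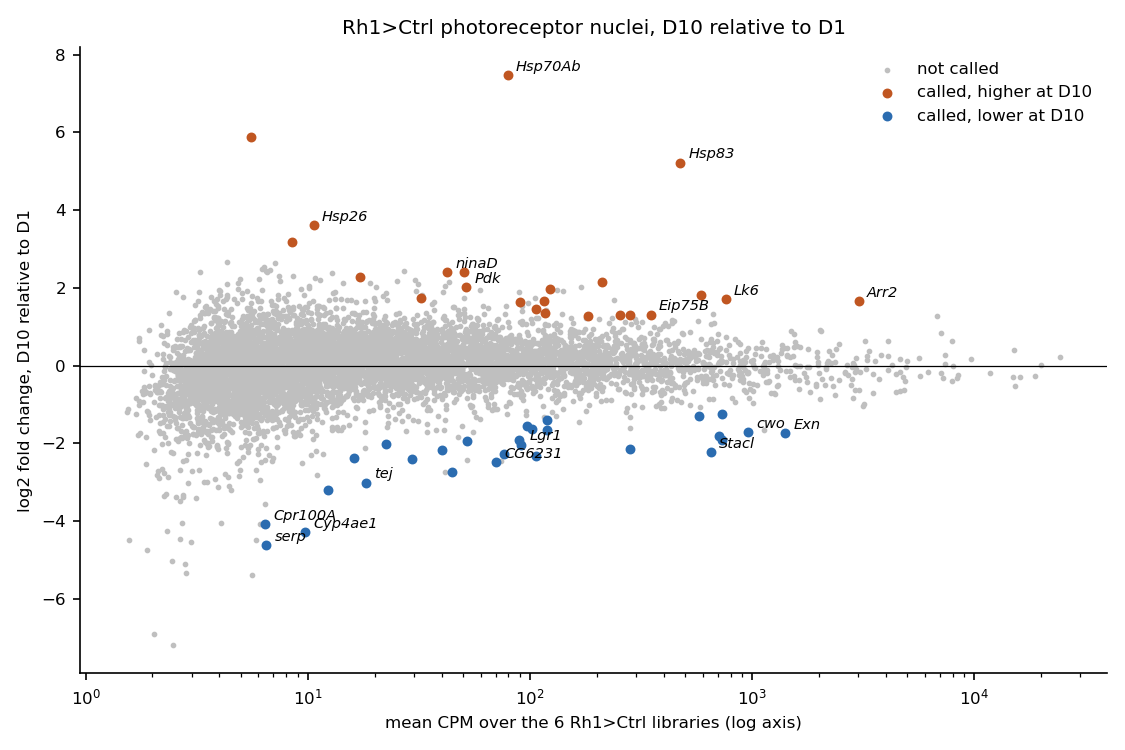
Log2 fold change of D10 relative to D1 (vertical axis) against mean CPM over the 6 Rh1>Ctrl libraries (horizontal log axis), 1 point per gene tested. The 23 DEGs that rose are orange and the 28 that fell are blue, with *Hsp70Ab* at 7.47 and *serp* at -4.63 as the extremes among DEGs.

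Among genes of phototransduction, the second arrestin and a receptor for chromophore precursors rose, while no channel or enzyme of the cascade passed the test. *Arr2* (FBgn0000121, chromosome 3L from 8647261 to 8648936 on dm6) encodes the main arrestin, which binds activated rhodopsin and ends its signal. It was at 1695, 1605 and 1053 CPM in replicates 1 to 3 at D1 and at 3350, 6094 and 4288 CPM at D10. Every D10 library was above every D1 library, by a log2 fold change of 1.66 (SE 0.31, adjusted p = 0.0456 by edgeR). Without replicate 2 at D10, its highest library, the value was 1.35 (adjusted p = 0.0128), and without replicate 3 at D1, its lowest, it was 1.38 and not called (adjusted p = 0.155). *Pex7* lies on the opposite strand at *Arr2*, with 10.5 to 33.9 CPM. *ninaD* (FBgn0002939, chromosome 2L from 18081628 to 18083608) encodes a scavenger receptor needed for the uptake of carotenoids, from which the chromophore of rhodopsin is made. Its level went from 12.7, 11 and 16.8 CPM at D1 to 87.8, 66.3 and 60.0 CPM at D10, a log2 fold change of 2.41 (SE 0.32, adjusted p = 0.0146 by edgeR). The ages were far apart relative to the spread within each, and the value was 2.43 without replicate 2 at D10 (adjusted p = 0.00135) and 2.52 without replicate 3 at D1 (adjusted p = 0.0832). *ninaD* is also on the pigment cell list, whose summed level was higher at D10, and the part of pigment cells in its rise was not tested. In bulk nuclei, fewer cells of a type and less RNA per cell cannot be told apart.

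The rhodopsin gene of these cells, *ninaE* (FBgn0002940, chromosome 3R from 19886255 to 19888206), was at 4820, 4590 and 2591 CPM at D1 and at 9331, 9853 and 9750 CPM at D10. The groups did not overlap and the D10 libraries were close together, but the log2 fold change of 1.27 missed the threshold (SE 0.30, adjusted p = 0.0973 by edgeR). It was called without replicate 2 at D10 (1.22, adjusted p = 0.0404) and not without replicate 3 at D1 (0.96, adjusted p = 0.167). The rhodopsins of inner photoreceptors were low, *Rh3* at 8.72 to 13.5 CPM at D1 and 20.4 to 38.2 CPM at D10, and *Rh6* at 6.37 to 12.5 and 16.3 to 23.8 CPM. Neither was called with any 1 library left out. *norpA* had a log2 fold change of 0.23 (adjusted p = 0.823) and *trp*, the light-gated channel, one of -0.29 (adjusted p = 0.819). Of 36 phototransduction genes tested, 2 rose (against 0.318% of all genes) and none fell, with a median log2 fold change of 0.13. The median was 0.04 without replicate 2 at D10, where *ninaE* and calmodulin (*Cam*, log2 fold change 1.17, adjusted p = 0.0185) were also called. In that fit 1.16% of all genes rose. *Cib2* (FBgn0034558, chromosome 2R from 20879930 to 20882663), which encodes a calcium- and integrin-binding protein, was not on that list. It rose from 13.9, 23.7 and 10.1 CPM at D1 to 67.4, 98.0 and 91.4 CPM at D10, a log2 fold change of 2.41 (SE 0.37, adjusted p = 0.0191 by edgeR), with no overlap.

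Of the core clock genes and clock kinases listed, 1 fell, *cwo*. *Cipc*, which is described with it, was not on that list. With collection at ZT 9 alone, a change in the level of a rhythmic gene and a change in its phase cannot be told apart. *cwo* (FBgn0259938, chromosome 3R from 10388258 to 10400752), a repressor that acts on targets of Clk and Cyc, was at 1575, 1507 and 1335 CPM at D1 and at 558, 313 and 483 CPM at D10. The lowest D1 library was more than 2-fold above the highest D10 library, and the log2 fold change was -1.71 (SE 0.28, adjusted p = 0.0287 by edgeR). *Cipc* (FBgn0051324, chromosome 3R from 26106868 to 26130674), named for the mammalian protein that binds and inhibits CLOCK, fell in the same way, from 1150, 1233 and 1071 CPM to 394, 203 and 318 CPM. Its log2 fold change was -1.92 (SE 0.29, adjusted p = 0.0191 by edgeR), and replicate 2 at D10 was the lowest library for both genes. Without that library the values were -1.54 for *cwo* (adjusted p = 0.0036) and -1.73 for *Cipc* (adjusted p = 0.00176). Without replicate 3 at D1 they were -1.83 and -2.03, with adjusted p of 0.0926 and 0.0913. *CG14556*, a gene that lies within *Cipc* on the same strand, went from 148, 160 and 224 CPM to 47.6, 22.3 and 35.2 CPM, a log2 fold change of -2.32 (adjusted p = 0.0182 by edgeR). Reads of this gene and of *Cipc* may not have been separable in counting, so its own change is uncertain.

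The other core clock genes were not called. *Clk* was at 18.2, 27.2 and 32.2 CPM at D1 and at 67.0, 32.4 and 73.5 CPM at D10, with replicate 2 at D10 level with the highest D1 library. The log2 fold change was 1.17 over all libraries (SE 0.37, adjusted p = 0.236) and 1.41 without that library, where it was called (adjusted p = 0.0177). *tim* was at 19930, 19360 and 13841 CPM at D1 and at 14228, 15311 and 14047 CPM at D10. The D10 libraries lay between the D1 replicates. *vri* was at 1315, 1286 and 987 CPM and at 1442, 1297 and 1431 CPM, while *per* was at 898, 839 and 404 CPM and at 478, 1338 and 787 CPM. For *Pdp1* the values were 8666, 8071 and 7395 CPM at D1 and 8938, 3331 and 7128 CPM at D10, and for *cyc* 24.4, 23.9 and 15.4 CPM and 15.3, 26.7 and 22.6 CPM. All 4 of these genes had ages that overlapped. Over the 15 clock genes and clock kinases tested, 1 fell (*cwo*, against 0.387% of all genes), none rose and the median log2 fold change was -0.10.

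**Figure D3:**
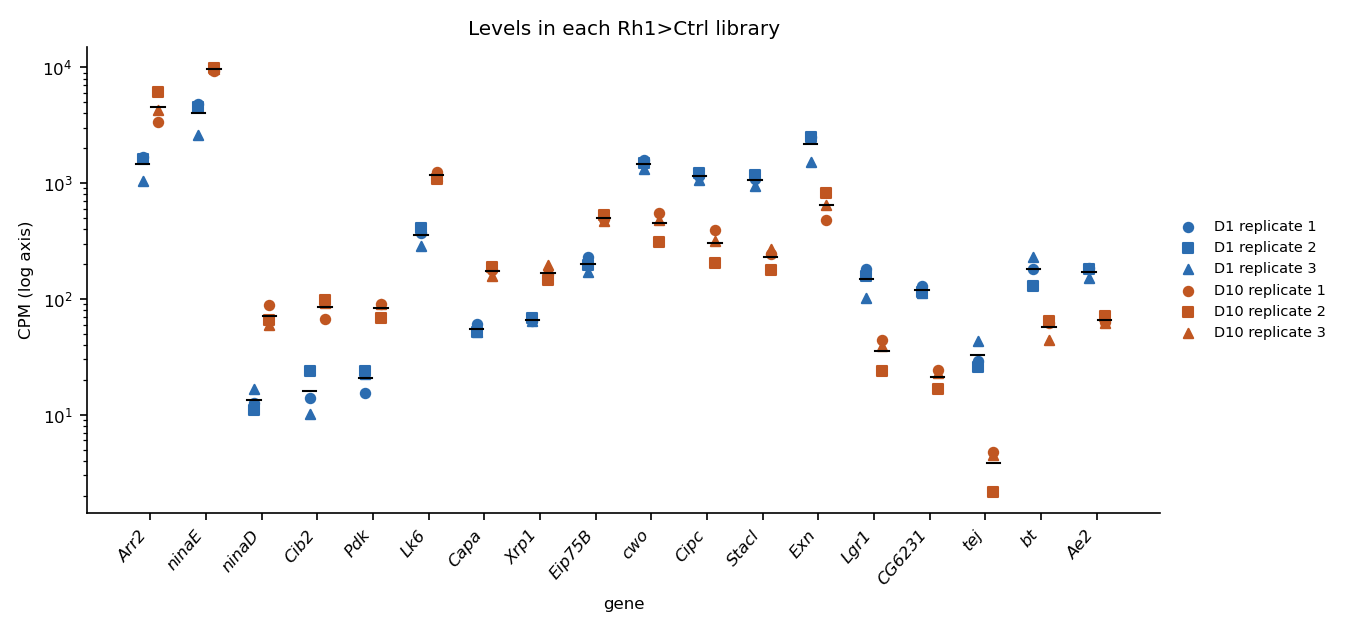
CPM on a log axis in each Rh1>Ctrl library for 18 genes (blue D1, orange D10; circles, squares and triangles are replicates 1, 2 and 3; black lines are means of 3 libraries). The ages do not overlap for any gene shown, with *Arr2* to *Eip75B* higher and *cwo* to *Ae2* lower at D10.

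Single DEGs encode channels, their partners or transporters, of which 3 fell (*Stacl*, *Ae2* and *Picot*) and 2 rose (*Cngl* and *Ca-Ma2d*). They were put side by side after their values were seen, and the lists of ion pumps and transporters (27 tested, median log2 fold change -0.02) and of calcium handling (24 tested, median 0.05) held no DEG. *Stacl* (FBgn0263980, chromosome 2R from 15401096 to 15471884) encodes a relative of the vertebrate Stac proteins, which bind voltage-gated calcium channels. It was at 1097, 1187 and 938 CPM at D1 and at 243, 178 and 269 CPM at D10, a log2 fold change of -2.22 (SE 0.27, adjusted p = 0.00703 by edgeR). The highest D10 library was well below the lowest D1 library, and without replicate 2 at D10 or replicate 3 at D1 the value was -2.11 or -2.38. The transcription unit of *Stacl* also contains the antimicrobial peptide gene *Mtk* on the same strand. *Ae2*, which encodes an anion exchanger, fell from 186, 181 and 151 CPM to 63.0, 71.4 and 61.5 CPM (log2 fold change -1.40, adjusted p = 0.0386), and *Picot*, a relative of phosphate cotransporters, from 78.4, 73.5 and 45.9 CPM to 19.1, 8.65 and 15.1 CPM (log2 fold change -2.18, adjusted p = 0.0314). In contrast, *Cngl*, which encodes a relative of cyclic nucleotide-gated channels, and *Ca-Ma2d*, an alpha2/delta subunit of calcium channels, rose by 1.28 and 1.29 on the log2 scale (adjusted p = 0.0404 and 0.0443 by edgeR). Their levels were 99.6 to 112 and 140 to 155 CPM at D1 and 245 to 280 and 305 to 413 CPM at D10. Of 30 genes tested on the list of voltage-gated channels, *Stacl* alone was called, where 0.387% of all genes fell. The median log2 fold change was 0.14. *Cngl* and *Ca-Ma2d* were not on that list.

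Other single genes that fell encode a receptor, surface proteins and proteins that act on the cytoskeleton. *Lgr1* (FBgn0016650, chromosome 3R from 17725777 to 17733207), a receptor of the glycoprotein hormone type, was at 183, 157 and 102 CPM at D1 and at 44.2, 23.8 and 39.1 CPM at D10. It had a log2 fold change of -2.03 (SE 0.33, adjusted p = 0.0287 by edgeR), and the D10 replicates were all well below the D1 range. *beat-IIIc*, an immunoglobulin-type surface protein of the Beat family, went from 23.8, 28.9 and 29.2 CPM to 7.49, 1.44 and 5.70 CPM (log2 fold change -2.37, adjusted p = 0.0494). *kek4*, of the Kekkon family with leucine-rich repeats, went from 85.4, 84.9 and 79.1 CPM to 30.6, 11.5 and 21.2 CPM (log2 fold change -1.95, adjusted p = 0.0403). For both, replicate 2 at D10 was the lowest library, and without it the values were -2.10 and -1.73, still called. *Exn*, the guanine nucleotide exchange factor Ephexin, was the most abundant gene that fell, from 2513, 2483 and 1521 CPM to 481, 824 and 649 CPM (log2 fold change -1.74, SE 0.31, adjusted p = 0.0386). *ck*, which encodes myosin VIIa, fell from 145 ± 19.9 to 49.2 ± 8.21 CPM (mean ± SD, n = 3), a log2 fold change of -1.55 with an adjusted p of 0.0345 by edgeR. Of 61 neuronal adhesion and guidance genes tested, 1 fell (*beat-IIIc*), none rose and the median was 0.01. Of 28 neuropeptide and receptor genes tested, 1 fell (*Lgr1*) and the median was -0.16. Over all genes tested 0.387% fell. Of 45 small GTPase and actin genes tested none was called, 29 had a higher and 16 a lower value at D10, and the median was 0.16. *Capa*, a neuropeptide precursor that was not on that list, rose from 61.2, 51.9 and 52.3 CPM to 178, 190 and 159 CPM (log2 fold change 1.67, adjusted p = 0.0191). It lies 174 bases beyond the end of *trp* on the same strand, and *trp* itself had 9122 to 20234 CPM.

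Of the cuticle genes, 2 fell, both to a few counts at D10. *serp* (FBgn0260653, chromosome 3L from 19700977 to 19708015), a chitin deacetylase, had 63, 73 and 30 counts at D1 and 0, 0 and 5 counts at D10. The cuticular protein gene *Cpr100A* (FBgn0039805, chromosome 3R from 30867521 to 30869184) had 62, 59 and 34 counts at D1 and 1, 2 and 3 counts at D10. Both were thus close to absent at D10, with fitted log2 fold changes of -4.63 and -4.07 (adjusted p = 0.0443 and 0.0303 by edgeR) that rest on few counts. A second chitin deacetylase gene, *Cda5*, was not on the cuticle list. It went from 104, 161 and 162 CPM to 50.4, 19.5 and 41.1 CPM (log2 fold change -1.92, adjusted p = 0.0456). Over the cuticle and lens list 125 genes were in the table, 21 were tested, 2 fell (against 0.387% of all genes tested) and none rose. For 18 the value was lower and for 3 higher at D10. Of the 21, 5 had passed the count minimum through D1 alone and so had to come out lower. *serp*, *Cpr100A* and *Cpr76Bd* are among them. Nothing is thus read from the median log2 fold change of -1.28, or from the numbers that fell, here or without replicate 2 at D10. Without replicate 2 at D10, the median was -1.53 and 4 fell (1.23% of all genes did), with *Cht6*, a chitinase family gene (log2 fold change -2.21, adjusted p = 0.0177), and *Cpr76Bd* added. Without replicate 3 at D1 the median was -0.69, but the 5 genes that passed through D1 alone could not be tested there. This median thus covers fewer genes and is not comparable with that over all 6 libraries. The lens gene *retinin* and the large matrix gene *dpy* had log2 fold changes of -0.23 and -0.06 (adjusted p = 0.896 and 0.969). The summed CPM of the list, which *dpy* dominates, was 873 to 1162 at D1 and 514 to 1232 at D10, so the ages overlapped (exact permutation p = 0.5, two-sided).

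Some of the genes that fell are known from muscle. *bt* (FBgn0005666, chromosome 4 from 724400 to 776474), which encodes projectin, a giant protein of the sarcomere, was at 183, 129 and 230 CPM at D1 and at 61.9, 64.9 and 44.6 CPM at D10. The log2 fold change was -1.67 (SE 0.30, adjusted p = 0.0403 by edgeR), and it was -1.80 without replicate 2 at D10 (adjusted p = 0.00465) and -1.53 without replicate 3 at D1 (adjusted p = 0.145). *Obsc*, an obscurin gene, went from 41, 29.3 and 37.6 CPM to 5.79, 13.7 and 8.34 CPM (log2 fold change -2.01, adjusted p = 0.0479). Of the 20 muscle markers tested, 1 fell, against 0.387% of all genes. A lower value at D10 was found for 19 of them, against 47.4% of all genes, and the median log2 fold change was -1.15. Of these 20, 1 had passed the count minimum through D1 alone. For some of these transcripts replicate 2 at D10 was at or above the D1 range, unlike the other D10 libraries. Myosin heavy chain (*Mhc*) was at 248, 203 and 165 CPM at D1 and at 65.3, 250 and 70.4 CPM at D10, and troponin T (*up*) at 28.3, 30.3 and 20.5 CPM and 4.76, 39.6 and 5.70 CPM. Without that library 5 of the 20 fell, where 1.23% of all genes did, namely *bt*, *Mhc* (log2 fold change -1.64), *sls* (-1.63), *up* (-2.36) and *Prm* (-2.21). The part of muscle nuclei or of muscle RNA in these values was not tested.

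Among other single genes that rose were a metabolic kinase, a kinase of translation and a pair of transcription factors. The lists of glycolysis, trehalose and lactate (28 tested, median log2 fold change 0.36), of lipid storage and breakdown (28 tested, 0.33) and of insulin, TOR and FOXO (25 tested, -0.10) held no DEG. *Pdk* (FBgn0017558, chromosome 2R from 9426439 to 9434638), the kinase that inhibits pyruvate dehydrogenase and so limits entry of pyruvate into the citric acid cycle, went from 15.6, 23.7 and 22.5 CPM at D1 to 90.2, 68.5 and 89.7 CPM at D10. The ages were well apart, with a log2 fold change of 2.01 (SE 0.30, adjusted p = 0.0191 by edgeR), and the value was 2.09 without replicate 2 at D10 and 2.01 without replicate 3 at D1 (adjusted p = 0.0994). *Lk6* (FBgn0017581, chromosome 3R from 11750931 to 11764457), a kinase of the initiation factor eIF4E, was at 374, 408 and 284 CPM at D1 and at 1256, 1097 and 1143 CPM at D10. This rise of 1.71 on the log2 scale (SE 0.25, adjusted p = 0.0191 by edgeR) came with a narrow spread at both ages. *Xrp1*, a bZIP factor of the response to proteotoxic and ribosomal stress, went from 65.0, 68.5 and 64.7 CPM to 165, 146 and 195 CPM (log2 fold change 1.35, adjusted p = 0.0404). *Eip75B*, a nuclear receptor that ecdysone induces, went from 232, 198 and 172 CPM to 488, 536 and 472 CPM (log2 fold change 1.31, adjusted p = 0.0404). It was the single DEG among 26 ecdysone response genes tested, whose median was 0.09, where 0.318% of all genes rose. *Eip93F* and *Eip74EF*, more abundant members of that list, had log2 fold changes of 0.29 and -0.66 (adjusted p = 0.765 and 0.377). *betaTub56D*, a beta-tubulin, went from 13.9, 17.2 and 13.4 CPM to 48.0, 41.1 and 60.8 CPM (log2 fold change 1.75, adjusted p = 0.0386), and *CG13912* from 48.9, 46.3 and 36.9 CPM to 175, 84.3 and 149 CPM (log2 fold change 1.63, adjusted p = 0.0494). *Cubn*, the endocytic receptor cubilin, and *Dmtn* also rose, by 1.45 and 1.30 on the log2 scale.

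The chaperone list held the largest rises, and 8 of 38 chaperones tested rose, against 0.318% of all genes, while none fell (median 1.23). *Hsp70Aa* and *Hsp70Ab*, which are among the 8, had passed the count minimum through D10 alone and so had to come out higher. Nothing is read from their rises, which the 8 and the median include. *Hsp83*, the fly Hsp90, was at 24.6, 31.6 and 17.4 CPM at D1 and at 745, 1360 and 665 CPM at D10 (log2 fold change 5.22, SE 0.40, adjusted p = 0.000385 by edgeR). It was called without replicate 3 at D1 (4.95, adjusted p = 0.0305) and without replicate 2 at D10 (4.79). *DnaJ-1*, an Hsp40, went from 88.7, 75.2 and 69.1 CPM to 374, 288 and 370 CPM (2.15, adjusted p = 0.00703). For the cognate Hsp70 gene *Hsc70-4* the values were 305, 300 and 175 CPM and 960, 1085 and 704 CPM, and for the endoplasmic reticulum chaperone *Hsc70-3* they were 55.3, 60.2 and 33.2 CPM and 147, 293 and 149 CPM. *Stip1*, a co-chaperone that links Hsp70 and Hsp90, went from 7.67, 3.53 and 6.37 CPM to 27.2, 26 and 32.2 CPM, and the small chaperone gene *Hsp26* from 0.81, 0.83 and 3.35 CPM to 13.6, 28.1 and 17.1 CPM. *Hsp70Ab* had 7, 1 and 3 counts at D1 and 845, 58 and 711 counts at D10, and *Hsp70Aa* 1, 1 and 0 counts and 56, 11 and 29 counts. These 2 near-identical copies may share reads. Replicate 2 at D10 had the fewest counts of both, and neither was tested without it, since too few libraries then passed the count minimum. Without replicate 2 at D10 6 of the 8 were called again. In that fit no gene could pass the count minimum through D10 alone. There 7 of 36 chaperones rose, where 1.16% of all genes did, and the median of the list was 0.80.

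The remaining genes that fell most came from different functions or have none assigned here. *Cyp4ae1*, a cytochrome P450, had 124, 91 and 36 counts at D1 and 4, 0 and 5 at D10. It was the 1 DEG among 55 glutathione transferase and P450 genes tested, where 0.387% of all genes fell. *tej*, known as a Tudor domain protein of the germline piRNA pathway, was at 29.3, 25.8 and 42.9 CPM at D1 and at 4.76, 2.16 and 4.48 CPM at D10 (log2 fold change -3.01, SE 0.42, adjusted p = 0.0146 by edgeR). *CG7203* went from 30.9, 27.8 and 8.05 CPM to 3.74, 1.44 and 1.83 CPM, with replicate 3 at D1 closest to the D10 libraries. *CG10713* went from 86.8, 84.3 and 62.7 CPM to 14, 5.77 and 14.2 CPM, and *CG6231* from 130.3, 115.5 and 113.3 CPM to 24.2, 16.6 and 22.8 CPM. The fall of *CG6231*, by 2.48 on the log2 scale (SE 0.28, adjusted p = 0.00678 by edgeR), ranged from -2.59 to -2.39 over the 6 fits without a library. *dcma* was at 52.9, 45.9 and 49.3 CPM and at 11.6, 9.37 and 7.12 CPM, *CG30089* at 146, 138 and 95.2 CPM and at 13.6, 35.3 and 30.7 CPM, and *MESR3* at 548, 444 and 387 CPM and at 148, 62.7 and 102 CPM. The ages were separate for all of them. *rgr*, *CG43373*, *CG9932* and *dnr1*, a repressor of the Imd immune pathway, had log2 fold changes of -1.80, -1.62, -1.30 and -1.25. In all, 5 of the 51 DEGs (*serp*, *Cpr100A*, *Cyp4ae1* and the 2 *Hsp70* genes) had passed the count minimum in 1 age only, as had 153 of the genes tested. The first 3 of these could not be tested without a D1 library.

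Of 40 lists of genes by function, 10 held a DEG and 30 held none. The medians of those 30 ranged from -0.48, for odorant binding proteins and chemoreceptors, to 0.64, for antimicrobial peptides. Of 66 oxidative phosphorylation genes tested none was called, with a median of -0.30. For 9 of them the D10 libraries were all lower and for none all higher, against 9.05% and 10.0% of all genes. The median was -0.50 without replicate 2 at D10 and -0.52 without replicate 3 at D1. Of 80 cytoplasmic ribosomal protein genes tested none was called, and the median of 0.60 fell to 0.14 without replicate 2 at D10, the library with the highest sum. For the 21 nicotinic, GABA and related receptor genes tested the median was 0.61, and 0.56 without that library. No member was called over all 6 libraries, and 4 rose without it, where 1.16% of all genes did. These were *nAChRalpha6* (log2 fold change 1.62), *nAChRalpha5* (1.53), *nAChRbeta1* (1.44) and *GluClalpha* (1.30). *nAChRalpha5* was at 51.7, 54.6 and 66.1 CPM at D1 and at 207, 31.7 and 132 CPM at D10, so that replicate 2 was the lowest library of all. Active zone and vesicle fusion genes (28 tested, median 0.18), proteasome subunits (30 tested, 0.07), antioxidant genes (23 tested, 0.26) and photoreceptor identity factors (19 tested, -0.21) held no DEG.

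**Figure D4:**
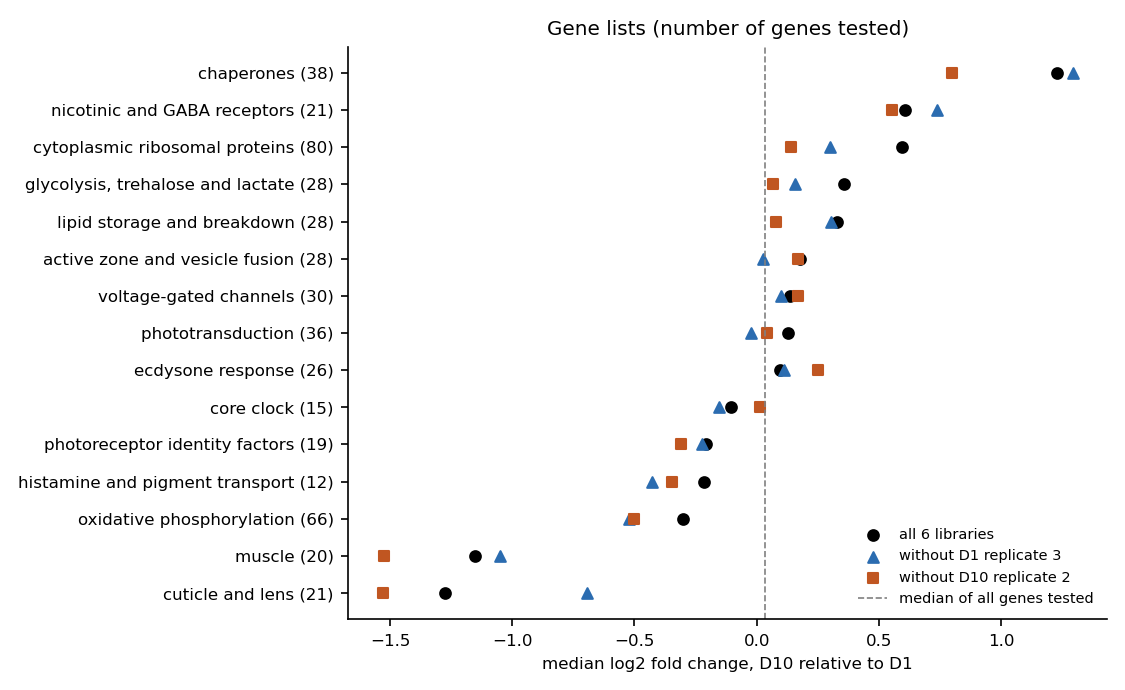
Median log2 fold change of D10 relative to D1 for 15 gene lists, with the number of genes tested in brackets (black circles all 6 libraries, blue triangles without replicate 3 at D1, orange squares without replicate 2 at D10). The dashed line is the median of all genes tested, 0.04, and chaperones (1.23), cuticle genes (-1.28) and muscle (-1.15) lie farthest from it. Of these, 2 chaperones passed the count minimum through D10 alone, and 5 cuticle genes and 1 muscle gene through D1 alone. Such genes could not be tested without a library of that age, so those medians cover fewer genes. The numbers in brackets are those over all 6 libraries. Nothing is read from the cuticle median.

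Without replicate 2 at D10, the 171 DEGs were 83 that rose and 88 that fell. They included 49 of the 51, all but the 2 *Hsp70* genes, and 122 others. All 122 had the same direction over the full set of 6 libraries, which holds every library of this fit, so little else could come out. The genes named from the 122, here and in the paragraphs on opsins, cuticle, muscle and receptors, were chosen after their values were seen. The sodium channel gene *para* was at 158, 165 and 154 CPM at D1 and at 411.1, 205.4 and 319.7 CPM at D10, with a log2 fold change of 1.17 in this fit (adjusted p = 0.0108) and 0.98 over all 6 libraries (adjusted p = 0.197). *NaCP60E* (1.04), and *unc79* (1.02) and *unc80* (1.07), partners of the sodium leak channel, were called in this fit as well. The glucose transporter gene *Glut1* had a value of 1.22, from 48.8 to 73.1 CPM at D1 and 128 to 150 CPM at D10. Early genes with a call were *sr* (1.68), *Atf3* (0.91) and *ImpL2*, a secreted binding protein of insulin-like peptides (1.71). *Rel*, the NF-kappaB factor of the Imd pathway, fell by 1.06 on the log2 scale (adjusted p = 0.0472). With replicate 3 at D1 left out as well, so that 2 libraries were compared with 2, there were 357 DEGs, which included all 45 of the 51 that could be tested.

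The same change of age in Rh1>ClkDN gave an independent set of libraries, with CPM normalized within that genotype. There, 1235 of 8451 genes were called (14.6%), with a biological coefficient of variation of 0.24 against 0.41 in Rh1>Ctrl. In a fit of all 12 libraries, which share 1 estimate of the spread, the counts were 235 for Rh1>Ctrl and 287 for Rh1>ClkDN. Of the 51 DEGs of Rh1>Ctrl, 50 were tested in Rh1>ClkDN. There 45 had the same direction, as did 57.3% of the 7041 genes tested in both genotypes, and 32 were called in that direction (64.0%). These were 14 of 22 that rose and 18 of 28 that fell. Across the 7041 genes the log2 fold changes of the 2 genotypes had a Pearson's r of 0.27 and a Spearman's rho of 0.22, where genes are not independent replicates. *Cipc* fell from 166 ± 15.7 to 52.1 ± 5.91 CPM in Rh1>ClkDN (mean ± SD, n = 3), a log2 fold change of -1.67 against -1.92 in Rh1>Ctrl, and *cwo* from 354 ± 47.3 to 169 ± 13.7 CPM (-1.07 against -1.71). *Lgr1* and *Exn* also fell in Rh1>ClkDN, with log2 fold changes of -1.73 and -1.20. *CG7203* had a value of -4.57, from 51.7 ± 45.8 to 2.11 ± 1.31 CPM, a wide spread at D1. *Cpr100A* went from 12.2 ± 1.92 to 0.27 ± 0.30 CPM there (log2 fold change -5.29). It reached the count minimum in Rh1>ClkDN at D1 alone and so had to come out lower. Nothing is read from its fall, which is counted among the 18. *DnaJ-1* rose by 1.80, *Stip1* by 2.73 and *Xrp1* by 1.74.

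A direct test of the difference in ageing between genotypes, the interaction over 12 libraries, called 56 of 9135 genes (0.613%, with 1167 at an unadjusted p under 0.05). It called 12 of the 51 DEGs. The 51 were picked by Rh1>Ctrl values that also enter this test, so the 12 are not set against the share of all genes. Of the 50 tested in both genotypes, 46 had the larger absolute change in Rh1>Ctrl, the genotype that picked them. *ninaD* was at 6.96 ± 3.55 CPM at D1 and at 7.33 ± 0.69 CPM at D10 in Rh1>ClkDN (mean ± SD, n = 3), and its rise was 2.32 larger in Rh1>Ctrl on the log2 scale (SE 0.50, adjusted p = 0.0391 by edgeR). *Arr2* was at 437 ± 55.1 and 435 ± 8.20 CPM there (SD, n = 3), with a difference of 1.59 (SE 0.36) that missed the threshold (adjusted p = 0.0546). *Eip75B* was at 208 ± 21.1 and 189 ± 23.2 CPM (difference 1.41, adjusted p = 0.047). *bt* rose in Rh1>ClkDN from 95.1 ± 11.3 to 153 ± 5.42 CPM (log2 fold change 0.68, adjusted p = 0.0014), opposite to its fall in Rh1>Ctrl, and the difference was -2.37 (SE 0.33, adjusted p = 0.00391). *Ae2*, with a log2 fold change of 0.38 there, also differed in sign (difference -1.83, adjusted p = 0.0101). *CG6231*, *CG30089*, *tej* and *CG10713* had log2 fold changes of -0.36 to -0.05 in Rh1>ClkDN, against -3.01 to -2.27 in Rh1>Ctrl. For *Cipc*, *cwo* and *Lgr1* the differences were -0.27 (SE 0.37), -0.66 (SE 0.36) and -0.33 (SE 0.44), with adjusted p of 0.832, 0.459 and 0.826, which does not show that the genotypes change alike.

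**Figure D5:**
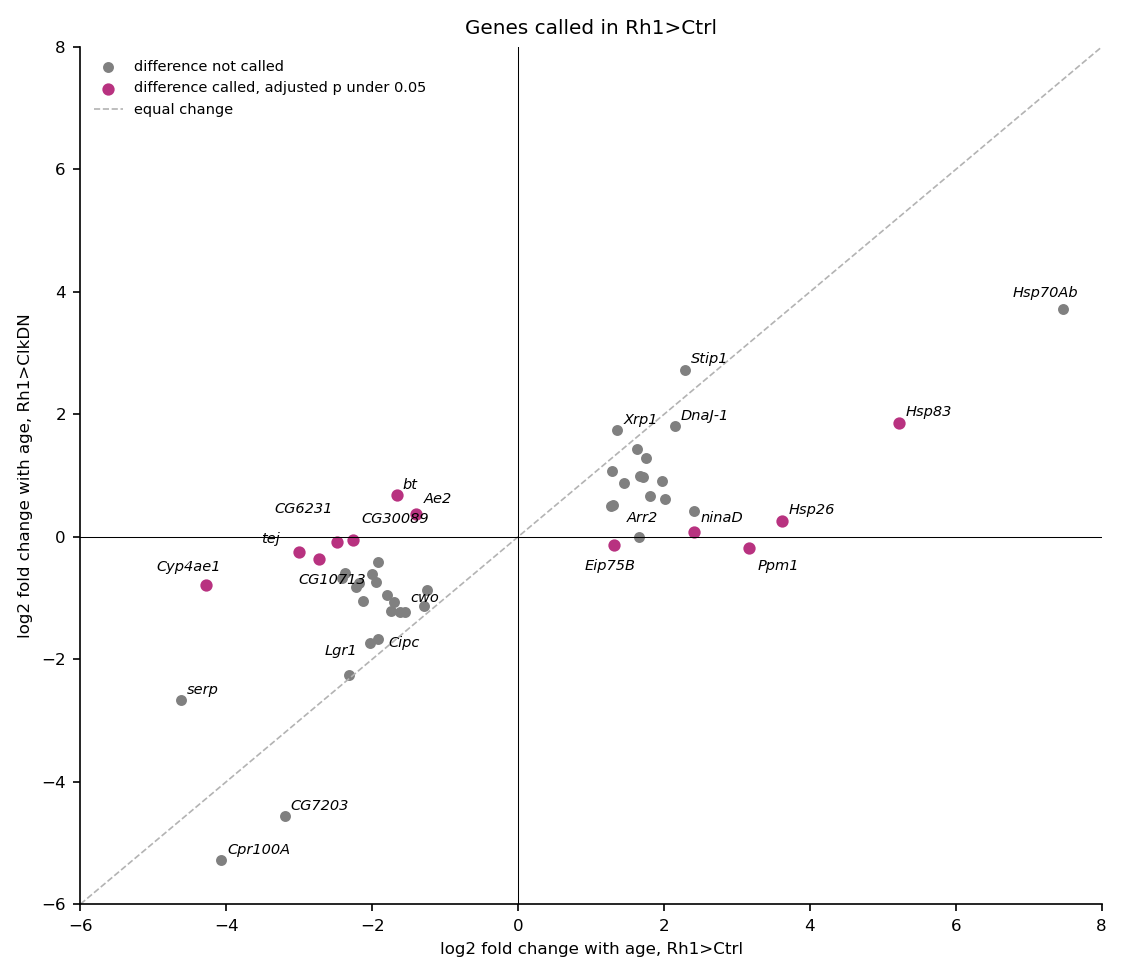
Log2 fold change with age in Rh1>ClkDN (vertical axis) against that in Rh1>Ctrl (horizontal axis) for the 50 DEGs of Rh1>Ctrl tested in both. Points on the dashed line change equally, and pink points are genes whose difference was called by the interaction test, such as *bt* (-1.67 in Rh1>Ctrl and 0.68 in Rh1>ClkDN).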

How the data were processed

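RNA from immuno-enriched photoreceptor nuclei was measured by RNA-seq. The authors deposited counts per gene in a table whose name calls them normalized. All values are whole numbers with library totals that differ, so they were used as raw counts. Per the labels, reads were processed with Trimmomatic, STAR, SAMtools and DESeq2 on dm6. The strand setting is not given in the sources used here, so genes that overlap on opposite strands may share reads. Of 13929 genes, 13866 had a location in Ensembl release 115.

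The 3 libraries of each age were compared with edgeR 4.0.16 in R 4.3.3 (TMM normalization, totals over all genes, quasi-likelihood test, Benjamini-Hochberg adjustment). The SE of a log2 fold change is its absolute value divided by the square root of F. CPM are counts scaled to the TMM-normalized library total, and errors of CPM are SD. The study's methods describe the 3 replicates of a group as independent and biological. Replicates of an age differed by more than counting noise (chi-square per degree of freedom 4.28 to 40.5).

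Values in every library are given for the 14 largest rises and falls (DEGs whose count averaged 50 or more), for DEGs on a function list and for 7 clock genes. The libraries compared, lists and tests were chosen with earlier results of these data known. Alternatives were DESeq2 1.42.0 and its size factors, total count scaling, other filters and thresholds, a replicate block, all 12 libraries, and leaving out each library. Tests were tried on simulated counts. Figures were drawn with matplotlib 3.10.9.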

Additional observations from a re-analysis of the deposited data

Results flagged for a closer look

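For 12 of the 51 DEGs of Rh1>Ctrl, the change from D1 to D10 differed from that in Rh1>ClkDN by the interaction test over all 12 libraries (edgeR, adjusted p under 0.05). Differences are those of Rh1>Ctrl minus Rh1>ClkDN on the log2 scale. The 51 were picked by Rh1>Ctrl values that also enter this test, which favours larger changes in Rh1>Ctrl. Larger rises in Rh1>Ctrl were found for *Hsp26* (3.35, adjusted p = 0.0179), *Ppm1*, a phosphatase of the PPM family (3.28, adjusted p = 0.0204), *Hsp83* (3.28, adjusted p = 0.00234), *ninaD* (2.32, adjusted p = 0.0391) and *Eip75B* (1.41, adjusted p = 0.047). *Hsp83* also rose in Rh1>ClkDN, by 1.86, whereas the other 4 had log2 fold changes of -0.18 to 0.26 there. Mean D1 levels, normalized within each genotype, already differed. In Rh1>ClkDN *Hsp26*, *Ppm1* and *Hsp83* were at 13.3, 12.8 and 142 CPM, against 1.66, 1.64 and 24.5 CPM in Rh1>Ctrl. *ninaD* was lower in Rh1>ClkDN (6.96 against 13.5 CPM), and *Eip75B* was close (208 against 201 CPM). Falls in Rh1>Ctrl that were smaller, absent or reversed in Rh1>ClkDN were found for *Ae2* (-1.83, adjusted p = 0.0101), *CG30089* (-2.28, adjusted p = 0.0179), *bt* (-2.37, adjusted p = 0.00391), *CG10713* (-2.37, adjusted p = 0.0204), *CG6231* (-2.42, adjusted p = 0.00401), *tej* (-2.74, adjusted p = 0.0101) and *Cyp4ae1* (-3.52, adjusted p = 0.0299). The reversed ones were *bt*, called as a rise in Rh1>ClkDN (log2 fold change 0.68), and *Ae2* (0.38, not called). For these genes too the mean D1 levels differed. *CG30089* and *tej* were higher in Rh1>ClkDN (285 against 127 and 78.0 against 32.7 CPM). *bt*, *CG6231* and *Cyp4ae1* were lower there (95.1, 62.4 and 9.96 CPM against 181, 120 and 18.7 CPM). *Ae2* was at 137 against 172 CPM and *CG10713* at 68.2 against 78.0 CPM. *Cyp4ae1* had passed the count minimum in Rh1>Ctrl through D1 alone. Groups of 3 libraries are too small for a search for single outlying libraries.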

How the results depend on the processing

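The count of 51 DEGs (23 up, 28 down) was 147 (75 up, 72 down) with no filter on low counts, 77 (45 down) with a mean count of at least 50, 189 (94 up, 95 down) with DESeq2, 235 (121 up, 114 down) in a fit of all 12 libraries and 5 (3 up, 2 down) at an adjusted p under 0.01. With DESeq2 size factors 15 rose. Alternatives chosen after seeing the data were library totals over tested genes only (14 up) and leaving out replicate 3 at D1 and replicate 2 at D10 together (357, with 180 up and 177 down). Leaving out 1 Rh1>Ctrl library at a time gave 1 to 171 DEGs, 1 to 83 up and 0 to 88 down, and 21 to 117 interaction calls in place of 56, which were 136 with a mean count of at least 50. Over 738 values of the 51 DEGs under these alternatives, 492 kept the call, 246 lost it and 0 changed sign. All 51 had groups that did not overlap, so a change of sign could hardly occur. The sign of *cyc* changed with DESeq2 size factors (-0.046), no filter (-0.040), a mean count of 50 (-0.047), DESeq2 (-0.048), 12 libraries (-0.052), totals over tested genes (-0.080) and both libraries left out (-0.38), and it ranged from -0.26 to 0.19 with 1 library left out. *per* was at -0.50 and *norpA* at -0.12 with both left out, and they ranged from -0.22 to 0.57 and from -0.056 to 0.35 with 1 left out. The cause was not tested. Of 778 list medians, 105 changed sign.

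A replicate block gave 60 DEGs (30 up, 30 down) and 51 interaction calls. Same-numbered deviations from the age means correlated at -0.042, 0.040 and -0.068, and those of unlike numbers at -0.14 to 0.14. Deviations within an age depend on each other through its mean, so no conclusion on pairing or shared batches is drawn. The depth of replicate 2 at D10, 1356529 counts, limits what can be seen of genes at a few CPM.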
